A study of Mus musculus with 4 samples.

Results

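The RefSeq noncoding RNAs followed here are the transcripts whose accession in the scanner files begins with NR_, the prefix that RefSeq gives to curated noncoding transcripts, other than H19 and Meg3. The array carried 795 probes of 695 such genes, and 364 probes of 315 genes were members, out of 27017 probes tested in all. Members were chosen by detection: in 1 or both channels, a probe had to be well above background on 3 or 4 of the arrays, so the detection flags of both conditions chose them and the log2 ratio did not. The other 431 NR_ probes were not tested. Of the 364, 297 met that standard in each channel of every array, 15 passed through the follistatin channel alone and 28 through the untreated channel alone. Of the 15, 14 had a mean ratio above 0, and of the 28, 24 had one below 0, a lean that the rule itself favours. At the edge of the rule, the 37 members detected on exactly 3 arrays had a median log2 ratio of -0.06 (quartiles -0.60 to 0.38), and the 26 NR_ probes detected on 2 arrays, just outside, had a median of -0.21 (quartiles -0.41 to 0.70).

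C2C12 is a mouse myoblast line that stops dividing and fuses into contractile myotubes when serum is withdrawn. Cells were grown to 80% confluence and differentiated for 6 days, either untreated or given 200 ng/ml of the recombinant human 288 form of follistatin each 24 h. Follistatin, which cells secrete, binds and blocks myostatin and activins, which restrain muscle growth. No transgene or deletion is named for either group, and both are the same line at the same day. The labels disagree on horse serum, with 2% under growth conditions and 10% under the sample sources. Each of the 4 biological replicates was 1 two-colour array, with the treated RNA in Cy3 and the untreated RNA in Cy5 every time, so a probe's preference for 1 dye and its response to follistatin cannot be told apart. Replicates 1 to 3 shared a slide and replicate 4 was on another.

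On the 4 arrays, 60.8% to 64.9% of all probes were well above background with follistatin and 61% to 69.1% without, and for NR_ probes 40.6% to 46% and 39.9% to 50.7%. Precision is limited by there being 4 arrays. Over the 364 members, replicates 2 and 3 correlated at r = 0.791, and the other 5 pairs of arrays between -0.029 and 0.337, a description across probes, in which replicates 1 to 3 share a slide. The same pairs over mRNA probes gave 0.821 and -0.072 to 0.298. Replicate 1, on the same slide, correlated with replicates 2 and 3 at -0.029 and 0.045 over the members. Why replicates 2 and 3 stood together, and whether their untreated samples were separate, was not tested. The SDs given with n = 4 treat the arrays as independent. All 10 myotube markers were tested, from Myod1 and Myog to the contractile Acta1 and Myh3, and their median log2 ratio was 0.64, -0.47, -0.92 and -0.44 on replicates 1 to 4. Of 12 markers of blood, endothelial, epithelial, neural and fat cells, 6 were tested (median -0.12, -0.35, -0.11 and -0.20), and Ptprc, Pecam1, Cdh5, Epcam, Adipoq and Plin1 were not detected on enough arrays. Fewer cells of a type and less RNA per cell cannot be told apart in such samples.

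Noncoding transcripts act as RNA, without being translated. Ribosomal RNA and the RNA of RNase MRP are catalytic or structural parts of large particles, small nucleolar RNAs guide the chemical modification of ribosomal RNA, and long noncoding RNAs such as Malat1, Neat1 and Xist stay in the nucleus and organise splicing factors, nuclear bodies or chromatin. Others are hosts that are cut up to release microRNAs or small nucleolar RNAs, run antisense to a coding gene, or are pseudogenes, decayed copies of coding genes that are still transcribed. By the current RefSeq table, 240 of the 364 probes belong to long noncoding RNAs and 75 to transcribed pseudogenes. Another 34 belong to genes now listed as protein coding, for which the array carries a noncoding variant or a gene whose small protein was recognised later.

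As a class, the noncoding RNAs were centred where the mRNAs were. Their median log2 ratio (follistatin over untreated, each array centred on its NM_ probes) was 0.01, with quartiles at -0.35 and 0.38, beside 0.01 for the 20142 probes of RefSeq mRNAs (quartiles -0.24 and 0.27) and -0.05 for all tested probes. Of the members, 184 were above 0 and 180 below. The 6511 probes with other accessions, mostly unnamed clones, had a median of -0.30, so the NR_ probes lay with the mRNAs and not with those. On single arrays the NR_ median was -0.004, -0.17, -0.03 and 0.16 for replicates 1 to 4. It was above 0 on replicate 4 alone.

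**Figure D1:**
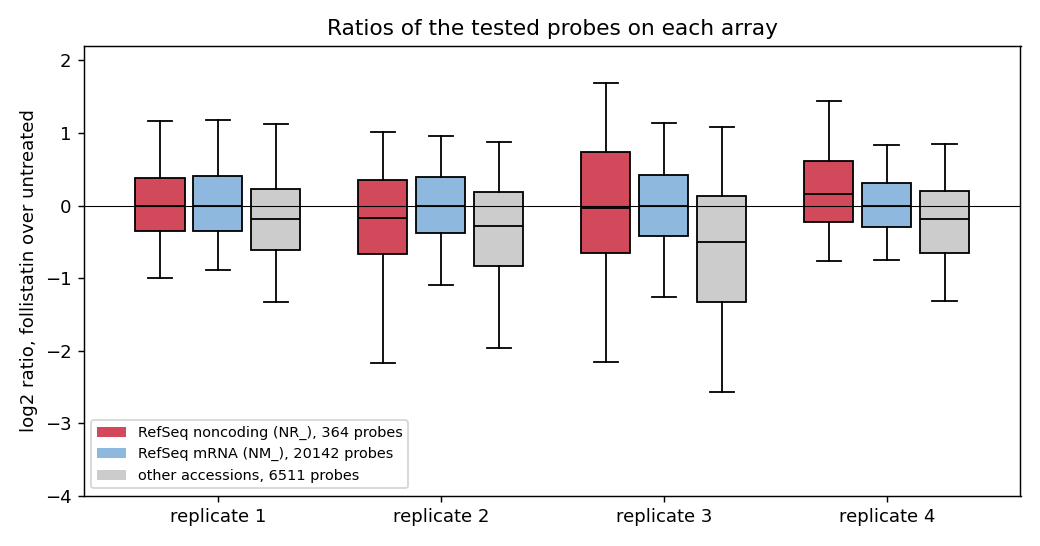
Log2 ratio of follistatin over untreated (y axis) on each array (x axis) for the 364 NR_ probes, the 20142 NM_ probes and the 6511 probes with other accessions. Boxes span the quartiles with the median as a line, and whiskers run from the 5th to the 95th percentile; the NR_ boxes are widest on replicate 3 and reach below -2 at the 5th percentile on replicates 2 and 3.

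The noncoding RNAs spread more between replicates than the mRNAs did. The median SD over the 4 arrays was 0.53 for NR_ probes and 0.40 for NM_ probes, but it was also 0.51 for the probes with other accessions. NR_ and NM_ probes also differed in brightness, with a median log2 intensity of 7.54 against 9.74. With the members split evenly into 3 sets by intensity, and beside mRNA probes of the same intensity, the SD was 0.53 against 0.48 in the dimmest set, 0.50 against 0.44 in the middle set and 0.56 against 0.37 in the brightest. The gap was widest among the brightest probes.

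No member passed the test. With limma's moderated test and Benjamini-Hochberg adjustment over all 27017 probes, 0 of 364 had an adjusted p under 0.05, against 2 of 27017 (0.0074%), and the smallest adjusted p of a member was 0.0987. The 2 called probes were the mRNAs of Ces3b and Olfr1299, named here because they were the only ones; neither was well above background in the follistatin channel on any array. At an unadjusted p under 0.05, 54 members (14.8%) were higher and 37 (10.2%) lower, beside 7.81% and 12.9% of all probes. The shares were 8.38% and 7.55% for mRNA probes and 5.68% and 29.6% for probes with other accessions. By mean ratio, 43 (11.8%) were more than 1.6-fold higher and 42 (11.5%) more than 1.6-fold lower, beside 5.12% and 10.8% of all probes, and beside 5.20% and 4.98% of mRNA probes. In the dimmest set of members these shares were 18.2% and 13.2%, against 10.1% and 6.0% of mRNA probes of the same intensity. They were 11.6% and 7.44% against 8.38% and 4.56% in the middle set, and 5.74% and 13.9% against 2.7% and 4.71% in the brightest. With normexp background correction and loess in place of the processed signals the counts of 43 and 42 became 9 and 17. That correction added an offset of 50, which draws the ratios of dim probes towards 0. Without replicate 3, the array with the widest NR_ ratios, 26 members were more than 1.6-fold higher. Shares of all probes under these settings are not given, so these counts do not show whether the excess over mRNA probes holds. Ratios had 1 sign on all 4 arrays for 61 members upward (16.8%) and 50 downward (13.7%), beside 11.2% and 17.1% of all probes, and 12.2% and 12.6% of mRNA probes. The methods' t-test on the separate channels, adjusted the same way, called 0 members. Unadjusted, with the 1.6-fold minimum, it called 46 (12.6%), beside 8.99% of all probes. With weights estimated for each array, which favour replicates 2 and 3, limma called 101 members (27.7%), beside 22.4% of all probes.

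The widest ratios belonged to ribosomal RNA. The probes of 18S and 28S ribosomal RNA, the RNAs of the small and large ribosomal subunits, are shown because their array-to-array pattern recurs in other members:
Rn18s, probe 1: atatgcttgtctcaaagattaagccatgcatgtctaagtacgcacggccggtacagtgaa
Rn18s, probe 2: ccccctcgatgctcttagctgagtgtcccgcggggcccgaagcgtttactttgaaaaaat
Rn28s1: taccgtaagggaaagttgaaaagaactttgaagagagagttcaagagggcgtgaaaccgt
These and all probe sequences below are the 60-base oligonucleotides of the scanner file, 5′ to 3′. The files place the Rn18s probes at chr17:39983322-39983381 and chr17:39984059-39984118 and the Rn28s1 probe at chr2:22600367-22600426 (mm9), although ribosomal RNA genes are repeated in the genome. Probe 2 of Rn18s gave log2 ratios of 3.28, -4.86, -4.12 and 0.10 on replicates 1 to 4. Probe 1 gave 1.88, -4.24, -4.76 and 0.44. Rn28s1 gave 3.18, -5.49, -3.90 and -0.02. All 3 were thus far above 0 on replicate 1, far below on replicates 2 and 3 and close to 0 on replicate 4, with mean log2 ratios of -1.40, -1.67 and -1.56 (SD 3.81, 3.33 and 3.91, n = 4) and adjusted p of 0.555, 0.426 and 0.523 by limma.

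The signals show which channel was the lower on each array. They were not normalized between arrays, and both channels differed widely from array to array. For probe 2 of Rn18s the processed follistatin signal was 60601, 4092, 8924 and 462192 on replicates 1 to 4, and the untreated signal 6157, 113002, 143574 and 423314. The low member of the pair was the untreated channel on replicate 1 and the follistatin channel on replicates 2 and 3. On replicate 4 both channels were high. The labels name total RNA, a quality check on a Bioanalyzer and labelling by in vitro transcription; no quality score per sample was used here.

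In all, 14 members (3.85%) were below -2 on both replicates 2 and 3, beside 1.49% of all probes, 0.695% of mRNA probes and 3.82% of probes with other accessions. They were picked by those ratios, so their size there is a description. Besides the ribosomal probes they were, all named because they met that bound, Rmrp, Tsix, 2 probes of Malat1, Mhrt, Smarca5-ps, Pisd-ps3, 1700022A21Rik, 9530080O11Rik, 4930481A15Rik and 4930473O22Rik. Mhrt, 1700022A21Rik and 4930473O22Rik were members through the untreated channel alone, a route that itself favours low ratios. Each had both channels above background on 1 array only. Their follistatin signals on replicates 2 and 3 were 5.1 to 18.9. Over the 14, the ratio on replicate 1 ran from -1.89 to 3.28, with 10 above 0, and on replicate 4 from -1.12 to 1.79, with 7 above 0. Their probes had a median GC content of 44.2%, against 41.7% for the other 350 members, and a median log2 intensity of 10.45 against 7.50. Whether they and the ribosomal probes share a source of variation was not tested.

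**Figure D2:**
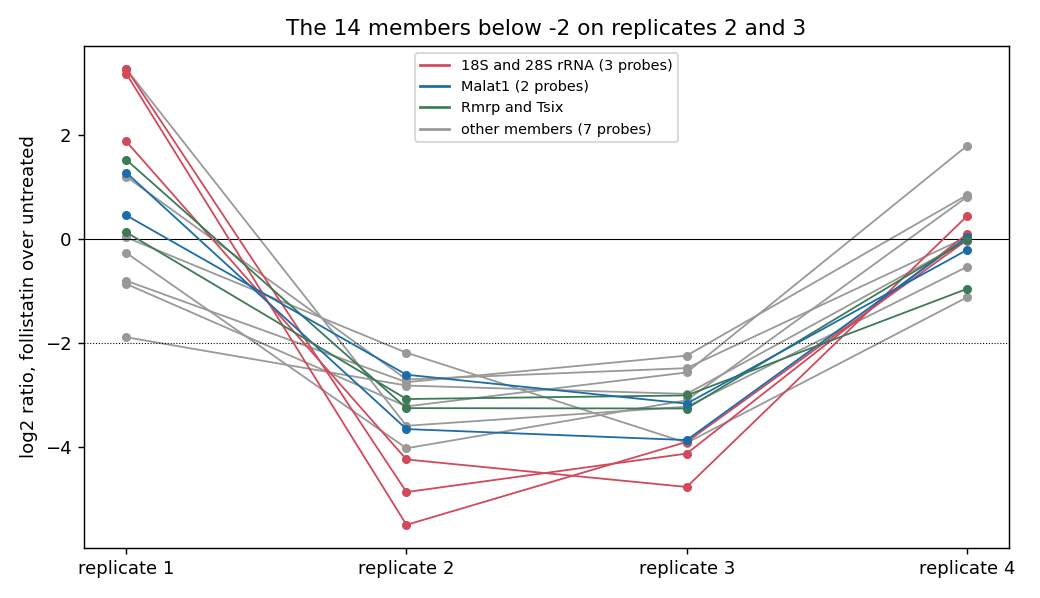
Log2 ratio (y axis) on replicates 1 to 4 (x axis) of the 14 members below -2 on replicates 2 and 3, 1 line a probe; the dotted line marks -2. The 3 ribosomal RNA probes reach from 1.88 to 3.28 on replicate 1 and lie between -0.02 and 0.44 on replicate 4, and the Malat1 and Tsix lines take the same course over a smaller range.

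Rmrp, the RNA of RNase MRP, which cuts precursor ribosomal RNA, gave 0.13, -3.07, -3.00 and -0.96, a mean of -1.73 ± 1.58 (SD, n = 4; limma adjusted p = 0.170). Its probe, at chr4:43505692-43505751 (mm9, minus strand), is 66.7% G and C:
Rmrp: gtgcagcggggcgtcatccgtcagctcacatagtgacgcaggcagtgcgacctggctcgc
Replicate 1 was near 0 and the other 3 below it. Among its protein partners, the subunits of RNase P and RNase MRP, 0 of 10 tested probes passed the test, with a median of -0.04, and those of smallest p were Rpp30 (0.66, 1.03, 0.90 and 0.16) and Rpp40 (0.76, 1.66, 1.14 and -0.31). Those 2 probes lay above 0 on replicates 2 and 3, where Rmrp was lowest.

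Snora3, a small nucleolar RNA that lies in an intron of the ribosomal protein gene Rpl27a, was below 0 on every array, at -1.32, -1.04, -1.13 and -0.61. Its follistatin signals of 592 to 685 did not overlap its untreated signals of 888 to 1457. The mean was -1.02 ± 0.30 (SD, n = 4), with a limma adjusted p of 0.100. The probe of its host Rpl27a read 0.08, 0.39, 0.19 and 0.63, on the other side of 0 on every array. Snora69 (0.15, -0.25, 0.17 and -0.08), Snord33 (0.43, -0.94, 0.14 and 0.76) and Snord35b (0.18, -0.46, 0.78 and 0.32) had no common sign. Terc, the RNA template of telomerase, gave -0.09, -0.36, 1.63 and 0.06, so only replicate 3 stood above the rest. Over the 6 small and polymerase III RNAs the median was 0.05, beside -0.05 for all tested probes, and 0 passed.

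Malat1, an abundant nuclear RNA of speckles, was lower with follistatin by the mean of each of its 4 probes. They are given 5′ to 3′ along the transcript, because their ratios differ from probe to probe:
Malat1, probe 1: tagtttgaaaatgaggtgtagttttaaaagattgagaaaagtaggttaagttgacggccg
Malat1, probe 2: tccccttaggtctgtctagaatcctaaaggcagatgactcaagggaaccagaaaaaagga
Malat1, probe 3: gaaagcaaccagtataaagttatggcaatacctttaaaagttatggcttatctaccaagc
Malat1, probe 4: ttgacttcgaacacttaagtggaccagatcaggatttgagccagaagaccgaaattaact
They lie on the minus strand at chr19:5802193-5802252, chr19:5800526-5800585, chr19:5799100-5799159 and chr19:5798230-5798289 (mm9), so probe 4 is 3963 bases downstream of probe 1. Probe 1 gave -0.32, -1.10, -2.39 and -0.74, and probe 2 gave -1.02, -1.23, -2.17 and -0.38. Both were below 0 on all 4 arrays. Probe 3 gave 0.46, -2.61, -3.16 and -0.21, and probe 4 gave 1.28, -3.65, -3.86 and 0.04. From probe 2 to probe 4 the ratio went down step by step on replicates 2 and 3 and up on replicates 1 and 4. Probes 1 and 2 kept that order on replicates 2 and 4 and not on replicates 1 and 3. The means were -1.14, -1.20, -1.38 and -1.55, with SDs of 0.89, 0.74, 1.77 and 2.60 (n = 4) and limma adjusted p of 0.156, 0.120, 0.263 and 0.357. Mean log2 intensity also fell from probe 1 to probe 4, at 17.29, 17.27, 13.42 and 11.66. Position on the transcript and brightness were not separated here.

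In processed signal, probe 1 of Malat1 read 177620, 138819, 48644 and 123100 with follistatin against 218027, 282994, 235253 and 201344 without. The 2 groups did not overlap. Probe 4 read 4438, 651, 606 and 7889 with follistatin against 1801, 7762, 8147 and 7537 without, and there the groups did overlap. With replicates 1 and 4 alone, a choice made after the data were seen, the mean ratios of probes 3 and 4 turned to 0.12 and 0.66.

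Tug1, a long noncoding RNA found in nucleus and cytoplasm, had the highest ratio of the members with 1 sign on all arrays. Its 3 probes, also 5′ to 3′, were:
Tug1, probe 1: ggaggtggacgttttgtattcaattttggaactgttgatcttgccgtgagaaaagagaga
Tug1, probe 2: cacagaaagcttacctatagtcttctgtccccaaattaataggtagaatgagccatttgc
Tug1, probe 3: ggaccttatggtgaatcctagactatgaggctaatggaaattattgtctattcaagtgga
Probe 2 (chr11:3544194-3544253, mm9) gave 1.13, 1.84, 2.18 and 0.37, a mean of 1.38 ± 0.81 (SD, n = 4; limma adjusted p = 0.111). Probe 3 (chr11:3540471-3540530) gave 0.99, 1.26, 1.36 and 0.30, a mean of 0.98 ± 0.48 (limma adjusted p = 0.112). Both were above 0 on every array and highest on replicate 3. Probe 1 (chr11:3546670-3546729) followed them on the first 3 arrays, at 0.88, 1.59 and 1.73, and was at -1.30 on replicate 4, where its follistatin signal was 1139 and its untreated signal 2741. With replicates 1 and 4 alone its mean turned to -0.21. For probe 2 the follistatin signals of 272.2, 746.4, 1010.4 and 274.5 all exceeded the untreated signals of 123, 198, 206 and 209.

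**Figure D3:**
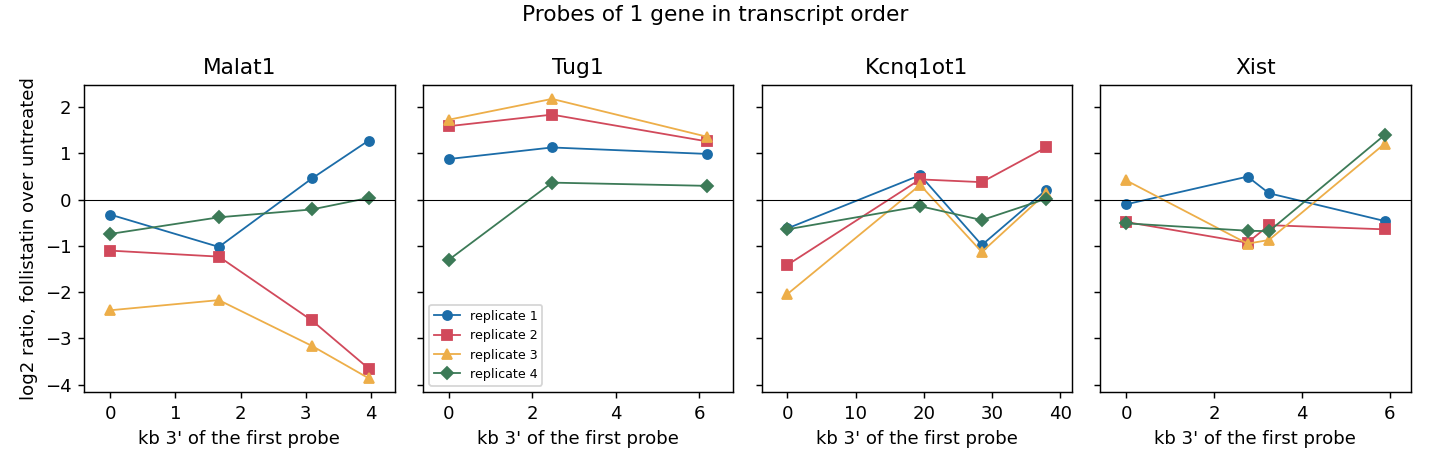
Log2 ratio (y axis) of each probe of Malat1, Tug1, Kcnq1ot1 and Xist against its distance in kb from the gene's 5′-most tested probe (x axis), 1 line a replicate. The Malat1 lines spread apart towards the 3′ end, from -0.32 to -2.39 at probe 1 to between -3.86 and 1.28 at probe 4, while Tug1 stays above 0 apart from probe 1 on replicate 4.

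Neat1, the scaffold of paraspeckles, gave 0.45, -0.21, 2.49 and 1.72, a mean of 1.11 ± 1.22 (SD, n = 4; limma adjusted p = 0.226). Replicates 3 and 4 were high and replicate 2 slightly below 0. Firre, which anchors chromatin domains on the X chromosome, was high on replicates 3 and 4 and below 0 on replicates 1 and 2 on both probes, at -0.63, -0.07, 2.80 and 1.94 and at -0.58, -0.17, 1.94 and 2.19. Among the protein genes of paraspeckles 0 of 17 probes passed, with a median of 0.11. The smallest p belonged to 1 of 3 probes for the RNA-processing factor Cpsf6, at -0.64, -0.86, -1.05 and -0.83. The other Cpsf6 probes had means of 0.29 and -0.03, so the probes of that gene disagreed.

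Xist coats the inactive X chromosome, and Tsix is its antisense partner. The 5′-most Xist probe gave -0.10, -0.48, 0.42 and -0.51. The next gave 0.50, -0.93, -0.95 and -0.67 and the one after it 0.14, -0.55, -0.87 and -0.68, with the same sign on each array. The 3′-most gave -0.46, -0.64, 1.21 and 1.40. The Xist probes thus took both signs, with means of -0.51 to 0.38 (limma adjusted p of 0.261 or more). Tsix gave 1.53, -3.25, -3.26 and -0.01, the course of the ribosomal probes. Of 13 probes for Polycomb and Xist-binding proteins 0 passed, and their median was 0.03.

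Among the other nuclear RNAs, named like Firre and Tsix after their values were seen, Dubr, also called Dum, which is known for its role in myoblast differentiation, was above 0 on all 4 arrays on both probes, at 0.09, 0.78, 1.06 and 0.52 and at 0.08, 0.65, 0.76 and 0.33 (limma adjusted p = 0.185 and 0.240). Norad, which sequesters Pumilio proteins, gave 0.69, 1.31, 1.11 and -0.87. Oip5os1, Crnde and Ftx had mean ratios of -0.19 to 0.21. Over the 22 probes of nuclear and chromatin-associated RNAs the median was 0.07, 11 were above 0 and 11 below, and 0 passed the test. By mean ratio 6 were more than 1.6-fold higher and 5 more than 1.6-fold lower, and all 11 belonged to Malat1, Tsix, Tug1, Neat1 and Firre.

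Kcnq1ot1 is an imprinted antisense RNA that silences neighbours in cis from the paternal chromosome, and 4 of its probes were members. The 5′-most, at chr7:150463034-150463093 (mm9, minus strand), gave -0.62, -1.41, -2.04 and -0.64, a mean of -1.18 ± 0.68 (SD, n = 4; limma adjusted p = 0.116). It was below 0 on all 4 arrays. The next ones, 19470, 28511 and 37919 bases downstream, gave means of 0.29, -0.54 and 0.38, and the probe of Kcnq1, which it overlaps, gave -0.51, 0.20, -0.07 and 0.09. The probes of 1 transcript therefore had both signs. Those with means above 0 were the dimmer ones, at log2 intensities of 5.92 and 5.32 against 11.30 and 7.855. The 3′-most was above background in both channels on 1 array only and was a member through the follistatin channel alone. Airn, the antisense RNA that silences Igf2r, gave -0.73, 1.06, 0.92 and 0.40, beside -0.40, 0.30, 0.22 and -0.30 for Igf2r itself, and Snhg14 gave -0.95, -0.33, 0.88 and 1.08. Of the 6 imprinted probes tested 0 passed, and their median was 0.23; Rian was on the array but not detected on enough arrays.

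Host genes of small nucleolar RNAs carry the guides in their introns, and their spliced RNA is quickly degraded when translated. All 11 probes on the array (10 genes) were members, 8 of them above 0 and 3 below, with a median of 0.34 beside -0.05 for all tested probes. None of the 11 passed. Their medians on single arrays were 0.15, -0.68, 0.74 and 0.66, so replicate 2 had the opposite sign from the other 3. Snhg3 gave 0.75, -0.95, 1.10 and 1.59 and Snhg17 0.05, -0.77, 1.52 and 1.71. Gas5, a growth-arrest RNA, gave -0.53, -1.24, 0.77 and 0.40. Snhg18 was above 0 on all 4 arrays at 0.15, 0.19, 0.57 and 0.44, as was the 5′ probe of Snhg8 at 0.84, 0.26, 0.74 and 0.49, while the other Snhg8 probe, 157 bases downstream, read 0.28, -0.36, -0.13 and -0.33. Those 2 Snhg8 probes had means of 0.58 and -0.13. Snhg5 gave 0.25, -0.20, 0.71 and 0.97 and Snhg7 -0.82, -0.68, 0.16 and -0.16.

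The factors of nonsense-mediated decay, which break down such spliced hosts, had 0 of 24 probes past the test and a median of 0.01. The probes of smallest p were 2 of the 6 for Smg1, the kinase of the pathway, at 0.67, 0.49, 0.97 and 1.11 and at 0.64, 0.46, 0.95 and 0.73. The other 4 Smg1 probes had means of -0.69 to 0.56, so they disagreed in sign. Of the proteins that bind the guides, 0 of 11 probes passed, with a median of -0.06. Dkc1, the pseudouridine synthase among them, had 2 probes above 0 on every array, at 0.43, 1.90, 1.37 and 0.37 and at 0.26, 1.03, 0.82 and 0.60.

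Members also carry microRNAs, short RNAs that pair through their seed with target mRNAs. By the RefSeq table, 10 members hold at least 1 named microRNA. The array measured the host transcripts and not the mature microRNAs, whose sequences are printed here, from RefSeq (GRCm38.p6), to show what the hosts give rise to; the seed, bases 2 to 8, is in capitals:
mmu-miR-322-5p: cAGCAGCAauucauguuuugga
mmu-miR-16-5p: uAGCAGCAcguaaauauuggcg
mmu-miR-503-5p: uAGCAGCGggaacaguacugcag
mmu-miR-199a-5p: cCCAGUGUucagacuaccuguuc
mmu-miR-214-3p: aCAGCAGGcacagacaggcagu
mmu-miR-100-5p: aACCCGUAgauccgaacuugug
mmu-miR-125b-5p: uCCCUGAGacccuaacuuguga
mmu-miR-22-3p: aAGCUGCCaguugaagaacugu
Of 29 mature sequences matched to the hosts, 1 seed occurred in more than 1: AGCAGCA, in miR-322-5p from C430049B03Rik and in miR-16-5p from Dleu2. The match may miss others, since it found no microRNA for Mir99ahg, a host by name. Their hosts leaned the same way. C430049B03Rik, which also holds miR-503, gave -0.37, 0.76, 1.66 and 0.61 (mean 0.67, limma adjusted p = 0.290). The 5′ probe of Dleu2 gave 0.72, 0.68, 0.84 and 0.38, above 0 on all 4 arrays (mean 0.66 ± 0.20 SD, n = 4; limma adjusted p = 0.129), and its other probe, 509 bases downstream, gave -0.40, 0.49, 0.35 and 0.35.

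Dnm3os, the host of miR-199a and miR-214, is known from skeletal and mesenchymal tissue. Its 3′ probe gave -0.87, -1.13, -0.99 and 0.44 (limma adjusted p = 0.270), and its 5′ probe 0.59, -0.48, 0.07 and 0.97. The probes differed in sign on 2 of the 4 arrays. Mir100hg, the host of miR-100, let-7a-2 and miR-125b-1, gave -0.06, 0.17, 1.79 and 1.31, and Mir22hg -0.51, 0.05, 0.85 and 0.19. Mir99ahg had a 5′ probe at -0.05, 1.57, 0.89 and -0.60 and a 3′ probe, 56503 bases away, at -0.38, -2.11, -1.94 and -0.68. That 3′ probe was dim (log2 intensity 5.39) and a member through the untreated channel alone, a route that itself favours low ratios. C130071C03Rik, which holds miR-9-2, gave -0.18, -0.14, -1.32 and -0.74, below 0 on all 4 arrays. Of the 10 host probes of the list 0 passed, and the median was 0.17. The microRNA processing and effector proteins had 0 of 30 probes past the test and a median of -0.18, with Dgcr8, the partner of Drosha, at 0.63, 0.66, 1.00 and 0.42 and 1 of 4 probes of Tnrc6b, a silencing effector, at -1.04, -0.65, -1.54 and -0.24. The other Tnrc6b probes had means of -1.31, -0.56 and 0.16.

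Antisense and opposite-strand transcripts were represented by 28 probes of 22 genes, with a median of -0.12, 11 above 0 and 17 below, and 0 past the test. Cep83os gave 0.83, 0.91, 0.94 and 0.57, a mean of 0.81 ± 0.17 (SD, n = 4; limma adjusted p = 0.104), among the narrowest spreads of the members named here. Its coding neighbour Cep83 gave -0.33, 0.50, 0.57 and 0.07. Fbxl12os gave 0.48, 0.89, 2.85 and 1.04 but was above background in both channels on 1 array only. Sox2ot, which surrounds the stem-cell gene Sox2, was not well above background in the follistatin channel on any array. The bound for it was at least 1.72-fold lower there (limma adjusted p = 0.105). Sox2ot was a member through the untreated channel alone and Fbxl12os through the follistatin channel alone. Those routes themselves favour a low and a high ratio.

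Across all members with a measured coding neighbour within 50 kb, ratios of member and neighbour correlated weakly, at r = 0.107 over 198 pairs, and 101 of the pairs had the same sign. For pairs that overlap on opposite strands r was -0.063 over 53 pairs. For the 10 pairs that overlap on the same strand it was 0.631, with 8 of the same sign. These are descriptions across genes measured on the same arrays.

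Pseudogenes can be read through their parents, since their probes may bind the coding RNA. A search of the 60-base probes for runs of at least 20 bases shared with a tested coding probe found 9 members and 10 pairs. The run is in capitals in these, shown as examples with ratios far from 0:
Gm6548: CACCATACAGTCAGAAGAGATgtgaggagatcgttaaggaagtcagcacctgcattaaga
Gm6607: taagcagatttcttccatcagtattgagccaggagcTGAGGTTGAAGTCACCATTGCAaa
Gm6548, named after its values were seen, shares 21 bases with a probe of Eef1a1, the translation elongation factor, and gave 0.98, 2.24, 1.78 and -0.62 where Eef1a1 gave 1.07, 2.25, 1.92 and -0.68. Gm6607 shares 22 bases with a probe of the ribosomal protein gene Rps20 and gave 0.30, -1.09, -0.85 and 0.15 where Rps20 gave 0.17, -1.24, -0.92 and -0.10. Gm6548 had the sign of its coding gene on every array, and Gm6607 on all but replicate 4. Over the 10 pairs the mean ratios differed by a median of 0.08 and by at most 0.44 on the log2 scale, and 8 pairs had the same sign. Values of these members are uncertain as measures of the pseudogene. The search set probes against probes and not against whole coding transcripts, so matches elsewhere in a coding RNA would have been missed.

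**Figure D4:**
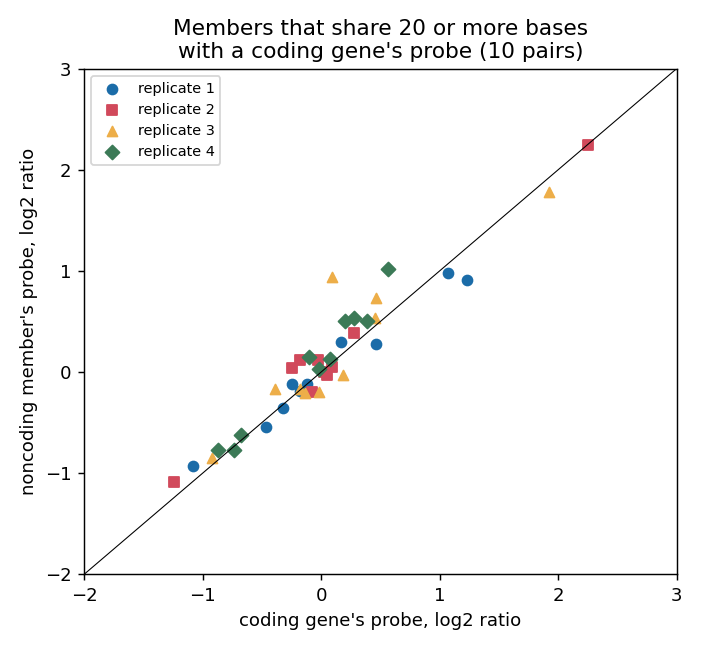
Log2 ratio of each member (y axis) against that of the coding gene's probe with which it shares at least 20 bases (x axis), for 10 pairs on replicates 1 to 4; the line marks equal values. Most points lie close to the line, with the Gm6548 and Eef1a1 pair at the top right on replicates 2 and 3 and the mean ratios of a pair differing by at most 0.44.

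Matched by name, 10 pairs of pseudogene and parent probes were tested, and 7 had the same sign. Ptma-ps2, named after its values were seen, shares no such run with a tested coding probe. Whether it matches another part of the Ptma RNA was not searched. It followed Ptma, at -0.70, 0.67, 0.49 and -1.12 against -0.67, 0.62, 0.53 and -1.27. Others parted from their parent. Smarca5-ps, a copy of the chromatin remodeller gene Smarca5, had the lowest mean of all members, at -1.89, -2.81, -2.98 and -0.03 (mean -1.93 ± 1.35 SD, n = 4; limma adjusted p = 0.122), while Smarca5 gave 0.03, 0.21, -0.31 and 0.13. Its signals were 2444, 924, 710 and 3635 with follistatin and 8895, 6170, 5155 and 3636 without, so replicate 4 showed no difference. Pisd-ps3 had 1 probe that shares 46 bases with Pisd and followed it (-0.36, -0.20, 0.73 and 0.53 against -0.32, -0.08, 0.46 and 0.28) and another, without a shared run, at -0.80, -2.75, -2.24 and 0.85. Olfr29-ps1 was below 0 on all 4 arrays (-0.25, -1.02, -1.27 and -0.36). Above 0 on all 4 were 1 of 3 probes of Ube2d-ps (0.67, 0.27, 0.38 and 0.71) and 1 probe of Ppp4r1l-ps (0.63, 0.46, 1.55 and 0.22). The other Ube2d-ps probes had means of 0.34 and 0.10 and were not above 0 throughout. The other Ppp4r1l-ps probe gave 0.35, 1.16, 1.96 and -0.20. Over the 27 probes of the pseudogene list the median was -0.03, 11 were above 0 and 16 below, and 0 passed.

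Most members are known by a clone or model number alone: 215 probes of 195 genes, with a median of 0.00, 108 of them above 0, and 0 past the test. Gdap10, which has a name of its own, is a transcript that overlaps Nampt on the same strand, and it had the smallest p of all 364 members. Its follistatin signals of 2530, 2005, 1815 and 2133 lay below all untreated signals, which were 4956, 4154, 4199 and 4660. The log2 ratios were -0.99, -1.13, -1.32 and -1.16, a mean of -1.15 ± 0.14 (SD, n = 4; limma adjusted p = 0.0987), and Nampt, which makes NAD, gave -0.24, 0.43, 0.30 and -0.22. Its probe, at chr12:33511572-33511631 (mm9, plus strand), is printed because its spread was the narrowest among the 10 lowest members:
Gdap10: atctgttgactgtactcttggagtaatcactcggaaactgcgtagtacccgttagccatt
BC065397, on the X chromosome opposite Morf4l2, was also below -1 on all 4 arrays, at -1.25, -1.10, -1.84 and -1.18 (mean -1.34 ± 0.34 SD, n = 4; limma adjusted p = 0.0987), although a second probe, 60172 bases downstream, gave -0.59, -0.41, 1.43 and 1.04.

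Other members low on every array were 5031426D15Rik (-1.11, -1.20, -1.93 and -0.95), 4930539N22Rik (-1.49, -0.97, -1.50 and -0.59), Tbrg3 (-0.71, -1.64, -2.66 and -0.15) and E030024N20Rik (-0.87, -1.24, -2.50 and -0.29). The last overlaps Gnaq, a G protein gene, whose probe gave -0.32, -0.31, -0.64 and -0.38. High on every array were A730063M14Rik (0.64, 1.03, 1.96 and 0.90), 8430429K09Rik (0.73, 1.32, 1.64 and 0.34), 1600020E01Rik (0.87, 0.13, 1.46 and 2.51) and 5530601H04Rik (0.40, 0.86, 1.15 and 1.13). The other probes of 8430429K09Rik and 5530601H04Rik had means of 0.15 and -0.54. A730063M14Rik overlaps Tspan31 on the opposite strand, which gave -0.39, -0.25, -0.62 and -0.29, below 0 on all 4 arrays. Also above 0 throughout were 1810034E14Rik (1.68, 0.65, 1.25 and 1.28; limma adjusted p = 0.0987) and 1 probe of 1700001L05Rik (1.11, 1.01, 1.69 and 0.71; limma adjusted p = 0.100), with both channels above background on 2 and 3 arrays. 1810034E14Rik was a member through the follistatin channel alone, a route that itself favours high ratios. The other 1700001L05Rik probe, 3604 bases downstream, gave 0.14, -0.34, 1.27 and 0.90. Between 0.79 and 0.83 in mean were Speer5-ps1, A630072M18Rik and 5730480H06Rik.

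**Figure D5:**
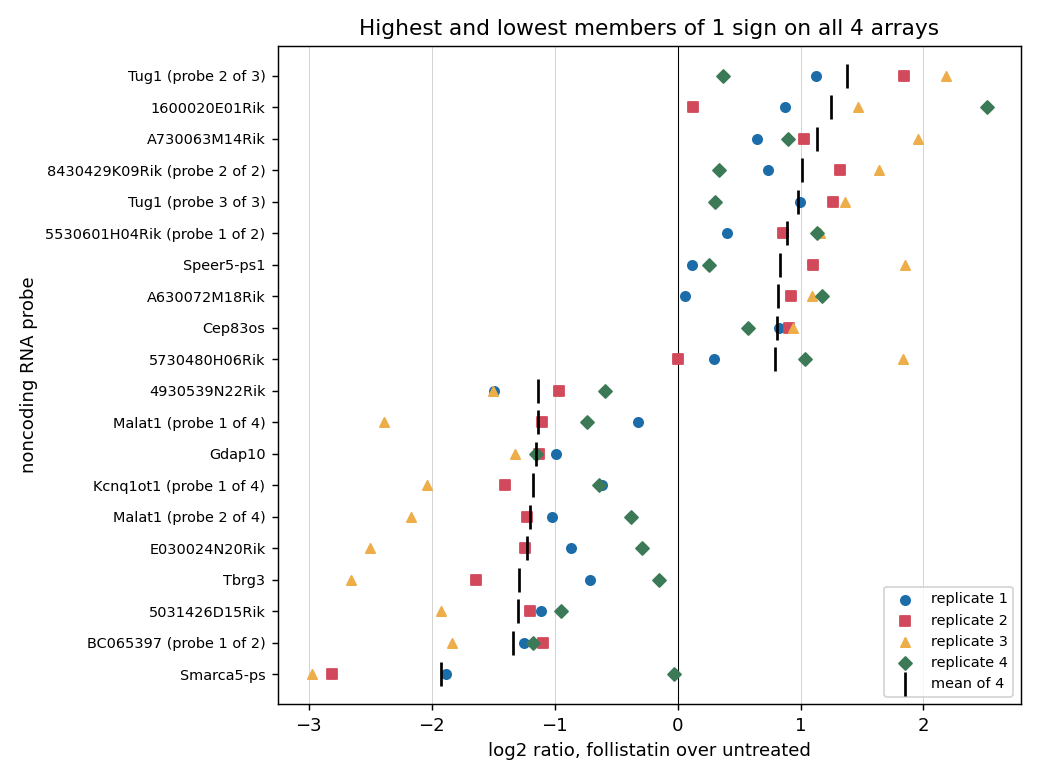
Log2 ratio (x axis) on replicates 1 to 4 of the 10 highest and 10 lowest members (y axis) among those with 1 sign on all 4 arrays and detected in both channels throughout; the upright bar is the mean. They were picked by these ratios, which run from a mean of -1.93 for Smarca5-ps to 1.38 for Tug1, and replicate 3 is the farthest from 0 for most.

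The 34 probes of genes now listed as coding include several small proteins of muscle and mitochondria, named here after their values were seen. Mrln encodes myoregulin, an inhibitor of the calcium pump of muscle, and gave 0.17, -0.20, -0.05 and 1.58. Mtln, a mitochondrial microprotein, gave -0.09, -0.82, -0.62 and 0.74, Nbdy, which binds decapping proteins, -0.19, -0.57, -0.39 and 0.51, and Pigbos1 -0.12, -1.13, -0.71 and 1.47. In all 4, replicate 4 was above the other arrays. The median of the 34 probes was 0.18, and 0 passed. Mhrt, a long noncoding RNA that runs opposite the myosin heavy chain gene Myh7, gave 1.20, -2.70, -2.48 and 0.04, where Myh7 gave 0.00, -0.35, -0.46 and -0.09. The Mhrt probe was above background in both channels on 1 array only.

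Of the 315 genes, 40 had more than 1 member probe: their means had the same sign in 21 genes and opposite signs in 19. Sign alone was counted, so the 19 include genes with means near 0, such as Foxd2os at -0.05 and 0.05. For 8 probes 1 channel was never well above background, and B330016D10Rik was at least 2.01-fold higher with follistatin, the highest such bound. In those 8 the limma adjusted p was 0.103 or more. All 8 were members through 1 channel alone, a route that itself favours a ratio leaning to that channel. The bounds come from the normalized channels and are open to dye bias, since no array had the dyes swapped.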

How the data were processed

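RNA of follistatin-treated and untreated C2C12 cultures was hybridised in pairs to 4 two-colour Agilent arrays, 1 for each replicate. Per the file headers, the deposited intensity values were extracted with Feature Extraction 10.7.3.1 (replicates 1 to 3) or 10.10.1.1 (replicate 4), with positions in mm9; the scanner software had subtracted background from the processed signals and balanced the dyes of each array. The deposited log10 ratio runs Cy5 over Cy3, the reverse of the direction used here. The log2 ratios of the authors' deposited table equalled log2 of the processed signals, Cy3 over Cy5, at r = 1 over 41174 probes, with column medians of -0.16, 0.17, 0.13 and 0.11, so they carry no further centring. The labels call all arrays dye swaps while giving the same dyes to each.

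Control spots and outlier flags were left out and spots of a probe averaged. Accessions and names came from replicate 4's file, and 787 of 795 NR_ probes matched the RefSeq table (GRCm38.p6), which was used for names, types and neighbours. Ratios were centred on the median of the tested NM_ probes, by 0.0225 to 0.115, and tested against 0 with limma 3.58.1 (R 4.3.3), Benjamini-Hochberg adjusted over 27017 probes; 1.6-fold is 0.68 on the log2 scale. A limma adjusted p is meant wherever one is given. Code was tested on simulated data.

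Named members were the 10 highest and 10 lowest of 1 sign on all arrays and detected throughout, the 6 brightest, any called, up to 4 of smallest p in each list, and a list by name. Coding genes were named only as neighbours, from the 2 probes of smallest p in a list, or as markers, and not every such probe is named; one result is not reported here. Others are said to be named after their values were seen; this holds too for Snora69, Snord33, Snhg14, Snhg17, Mir22hg and C430049B03Rik. Members and lists were chosen with earlier results of these data known. Antisense transcripts were listed by symbol ending or description, and symbols of microRNA host genes were counted only as hosts. Alternatives were another background correction and normalization, stricter detection, each array left out, the slide as a random block, array weights and the methods' t-test.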

Additional observations from a re-analysis of the deposited data

Results flagged for a closer look

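Of 87 sets of 4 values examined, 4 had 1 array far from the other 3 by Dixon's criterion, and chance alone flags about 1 in 20. For the 3′ probe of Dleu2, replicate 1 was at -0.40 and the others at 0.35 to 0.49. For the 3′ probe of Dnm3os, replicate 4 was at 0.44 and the others at -1.13 to -0.87. Gm10653, one of the 6 brightest members, was at 0.82 on replicate 1 and at 0.08 to 0.16 on the rest. The 3′-most probe of Kcnq1ot1 was at 1.13 on replicate 2 and at 0.02 to 0.21 on the rest.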

How the results depend on the processing

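With 4 arrays of 1 dye orientation, no test here separates dye from treatment. The 2 calls among all probes became 0 with normexp and loess, with detection required in both channels on all arrays, with replicates 2 and 3 averaged, with replicates 1 and 4 alone (chosen after seeing the data) and with any 1 array left out (0 to 0). Array weights gave 6056 calls (22.4%), 101 of them NR_ (27.7%), and the methods' t-test without adjustment 2428 (8.99%) and 46 (12.6%). With the slide as a random block the calls numbered 2 and 0, and the smallest adjusted p of a named member was 0.188. The 43 members more than 1.6-fold higher became 9 with normexp and loess, 26 with stricter detection, 82 on slide 2 alone, which gives no test, and 26 to 59 with 1 array left out. The 42 lower became 17 with normexp and loess, 26 on slide 2 alone, 72 with array weights, 17 with replicates 1 and 4 alone and 31 to 60 with 1 array left out. Shares of all probes past 1.6-fold under these settings are not given, and normexp was run with an offset of 50. The NR_ median was 0.162 on slide 2 alone and -0.066 to 0.05 with 1 array left out. Members of 1 sign numbered 119 upward and 82 downward with replicates 1 and 4 alone, and 67 to 85 and 56 to 93 with 1 array left out, where fewer arrays have to share a sign. With replicates 1 and 4 alone the sign turned for Airn (-0.16), Dleu2 (-0.03), Gm6607 (0.23), Malat1 probes 4 and 3 (0.66 and 0.12), Terc (-0.01) and Tug1 probe 1 (-0.21). Array weights turned 3000002C10Rik (-0.23), Gm6498 (-0.17) and the 5′ probe of Dnm3os (-0.02, and 0 with normexp and loess). With 1 array left out, 3000002C10Rik ran from -0.35 (without replicate 1) to 0.26, Gm6498 from -0.15 (without replicate 1) to 0.28, Gas5 from -0.46 to 0.21 (without replicate 2) and Terc from -0.13 (without replicate 3) to 0.53. The cause of these shifts was not tested. Of 1051 values of named members under all alternatives, 985 were scored as unchanged. Where a test was run, that meant the same direction and side of the threshold. On slide 2 alone it meant a shift smaller than the SD over the 4 arrays, whatever the sign. Signs that turned on slide 2 alone are therefore not listed above. Of 288 list medians 273 stayed within the spread between replicates. The test is itself paired within arrays, since each ratio sets a treated against an untreated sample of the same replicate.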
